A study of Danio rerio with 36 samples.

Results

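The genes described here lie within 10 Mb of sgsh on zebrafish chromosome 22. In the deposited annotation, sgsh (ENSDARG00000032087) is a protein-coding gene of the plus strand at chr22:11520249-11532760, on GRCz11 as the labels name the build. A gene was included when its first listed chromosome was 22 and its smallest start lay between 1520249 and 21532760. sgsh itself was left out, as were 2 keratin genes whose names start with krt, and no gene in the window had a name starting with cldn. This left 721 of the 32520 genes counted, 450 of them to the left of sgsh, toward lower coordinates, and 271 to the right. Of the 721 genes, 604 are annotated as protein coding, and 30 are copies of 5S rRNA. 370 have a gene symbol, and 351 have only a clone-based name (si:, zgc:, zmp: and the like) or an Ensembl identifier.

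The study sequenced RNA from zebrafish homozygous for sgshΔex5-6, a line lacking exons 5 to 6 of sgsh (called sgsh fish below), and from wild-type fish. Its 36 libraries form 12 groups of 3, covering whole embryos at 24 hpf (hours after fertilization), larval heads at 5 dpf (days after fertilization), and whole brains at 2, 3 and 18 months. Each embryo or larval library pooled 50 animals and each brain library pooled 3. At 2 months, sgsh and wild-type brains were also sequenced from fish that overexpress sgsh from a stable transgene driven by the ubb (ubiquitin) promoter, and these are called transgenic. The other 10 groups carry no transgene. The paper lists the sgsh line on the TU strain. How the sequenced sgsh and wild-type fish of each stage were bred was not given in the sources used here. For its in situ hybridization the paper describes the wild-type fish as siblings. Except for the 3-month brains, which the study's methods describe as independent replicates, nothing says whether the pools of a group came from separate clutches or days. The p-values measure only the spread between these pools.

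SGSH is a lysosomal enzyme that removes sulfate from heparan sulfate, and its loss causes mucopolysaccharidosis IIIA, a childhood neurodegenerative disease. Genes close to an edited site are inherited together with it. A homozygous mutant line is therefore often also homozygous for the stretch of chromosome on which the edit was made, while wild-type stocks can carry other versions (haplotypes) of that stretch. Zebrafish laboratory strains hold many such haplotypes. In these comparisons every sgsh library is homozygous at the locus, so an effect of the mutation and a difference between linked haplotypes cannot be told apart.

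The libraries held 16200025 to 26038889 counted reads or read pairs, of which the 721 genes took between 1.57% and 1.80%. Of the 721, 522 passed the filter on low counts in at least 1 of the 6 comparisons of sgsh with wild type, 381 passed in all 6, and 199 passed in none, among them all 30 copies of 5S rRNA. A gene is called when its adjusted p in edgeR's quasi-likelihood test is under 0.05, with adjustment over all genes tested in that comparison. Levels of single genes are given as CPM, the count of a gene scaled to a common library size after TMM normalization. Summed levels of marker genes are CPM of the total counts, without TMM. Differences are log2 fold changes of sgsh over wild type, with their standard errors (SE), from 3 libraries in each group. The SE was derived from the test, as the absolute log2 fold change divided by the square root of the F statistic. The brain libraries held neuronal and glial markers at high levels, all 5 neuronal markers above 0 in every library, with a summed level of 4760 CPM or more.

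The labels were checked on sgsh itself. Its level was lower in sgsh fish than in wild-type fish at 5 dpf, with a log2 difference of -0.93 (SE 0.0989, adjusted p = 4.39e-05), at 3 months with -0.99 (adjusted p = 0.00703) and at 18 months with -0.86 (adjusted p = 0.0243). The 18-month call was lost without sgsh replicate 2 or any wild-type replicate (adjusted p up to 0.0963). At 2 months the difference was -0.88 with an adjusted p of 0.0966. The CPM of the 3 sgsh brains were then 4.27, 5.11 and 4.40 and those of the wild-type brains 8.74, 7.59 and 9.07, so the groups did not overlap. At 24 hpf the groups overlapped, at 8.26, 6.52 and 7.03 against 6.94, 8.61 and 7.90 CPM. In the transgenic brains, where transgene reads are counted too, the levels were 116, 168 and 113 CPM in sgsh and 170, 154 and 221 CPM in wild type.

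The genes closest to sgsh differed little between the genotypes. slc26a11, which encodes a sulfate and anion transporter, overlaps the start of sgsh on the opposite strand (chr22:11497366-11520405). For the 24 hpf, 3-month and 18-month counts the strand setting is not stated, so reads of sgsh and slc26a11 may not be separable there. The level of slc26a11 at 5 dpf was 10.2, 9.53 and 10.4 CPM in sgsh heads and 11.9, 9.86 and 11.5 CPM in wild-type heads, and the groups overlapped. Its log2 differences ran from -0.14 at 5 dpf to 0.19 at 24 hpf, and it was called in none of the 6 comparisons. It was also the only gene in the window among 20 lysosomal and heparan sulfate genes that were looked for. On the other side, npb, encoding neuropeptide B, starts 2.4 kb from the end of sgsh. Its level at 3 months was 40.8, 41 and 53.4 CPM in sgsh brains and 49.2, 46.2 and 44.8 CPM in wild-type brains. All its log2 differences lay between -0.10 and 0.06.

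Next to these, gnav1, which encodes a G protein alpha subunit, had log2 differences from -0.42 to 0.15, and pcyt2, an enzyme of phosphatidylethanolamine synthesis, from -0.11 to 0.19. Neither was called at any stage. The proglucagon gene gcga passed the filter at 24 hpf and 5 dpf only and was called at neither. bcor, a transcriptional corepressor, and the long non-coding RNA si:dkey-277i15.2 were not called either. 3 of the 10 nearest genes tested were called at some stage, where 33.0% of the tested genes outside the window were. The tetraspanin gene tspan7b was higher at 24 hpf by 0.19 (SE 0.0446, adjusted p = 0.0034), at 73.6, 70.8 and 69.1 CPM in sgsh against 58.2, 64.6 and 64.3 CPM in wild type. mid1ip1b was lower at 24 hpf by a log2 difference of -0.25 (adjusted p = 0.0142) and higher at 18 months by 0.40 (adjusted p = 0.0311). dpp4, which encodes the peptidase that cleaves glucagon-like peptides, was lower at 24 hpf (-0.33, adjusted p = 0.0019) and higher at 5 dpf (0.37, adjusted p = 0.0141). mid1ip1b lost its 18-month call without sgsh replicate 2 or 3 or any wild-type replicate (adjusted p up to 0.129) and its 24 hpf call with DESeq2 and without sgsh replicate 1 or 2 or wild-type replicate 1 (up to 0.0805), and dpp4 lost its 5 dpf call without sgsh replicate 2 (adjusted p = 0.0671).

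The share of genes called in the window did not follow the background at every stage. At 24 hpf, 69 of the 428 genes tested were called (16.1%), against 21.7% of all genes. 33 were higher and 36 lower in sgsh, where 10.8% and 10.9% of all genes were. At 5 dpf it was 89 of 481 (18.5%), against 14.4%, with 45 higher and 44 lower, against 5.71% and 8.67%. In the 2-month brain 9 of 447 were called (2.01%), against 0.841%. At 3 months 10 of 459 were called (2.18%), against 2.89%, and at 18 months 21 of 462 (4.55%), against 6.72%. The share in the window was thus above the background at 5 dpf and 2 months and below it at 24 hpf, 3 months and 18 months.

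In the 2-month transgenic brains edgeR called none of the 447 genes, against 0.0304% of all genes. DESeq2 called none of the 346 genes to which it gave an adjusted p. With edgeR, 42 of the 447 (9.40%) had an unadjusted p under 0.05, against 6.34% of all genes. By side it was 14 of 281 on the left (4.98%) and 28 of 166 on the right (16.9%). Over the rest of chromosome 22 it was 50 of 271 (18.5%). Ranked by the share of genes called, chromosome 22 as a whole stood last of the 25 chromosomes at 24 hpf, at rank 2 at 5 dpf and rank 5 at 2 months, and at rank 14 and 24 at 3 and 18 months.

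**Figure D1:**
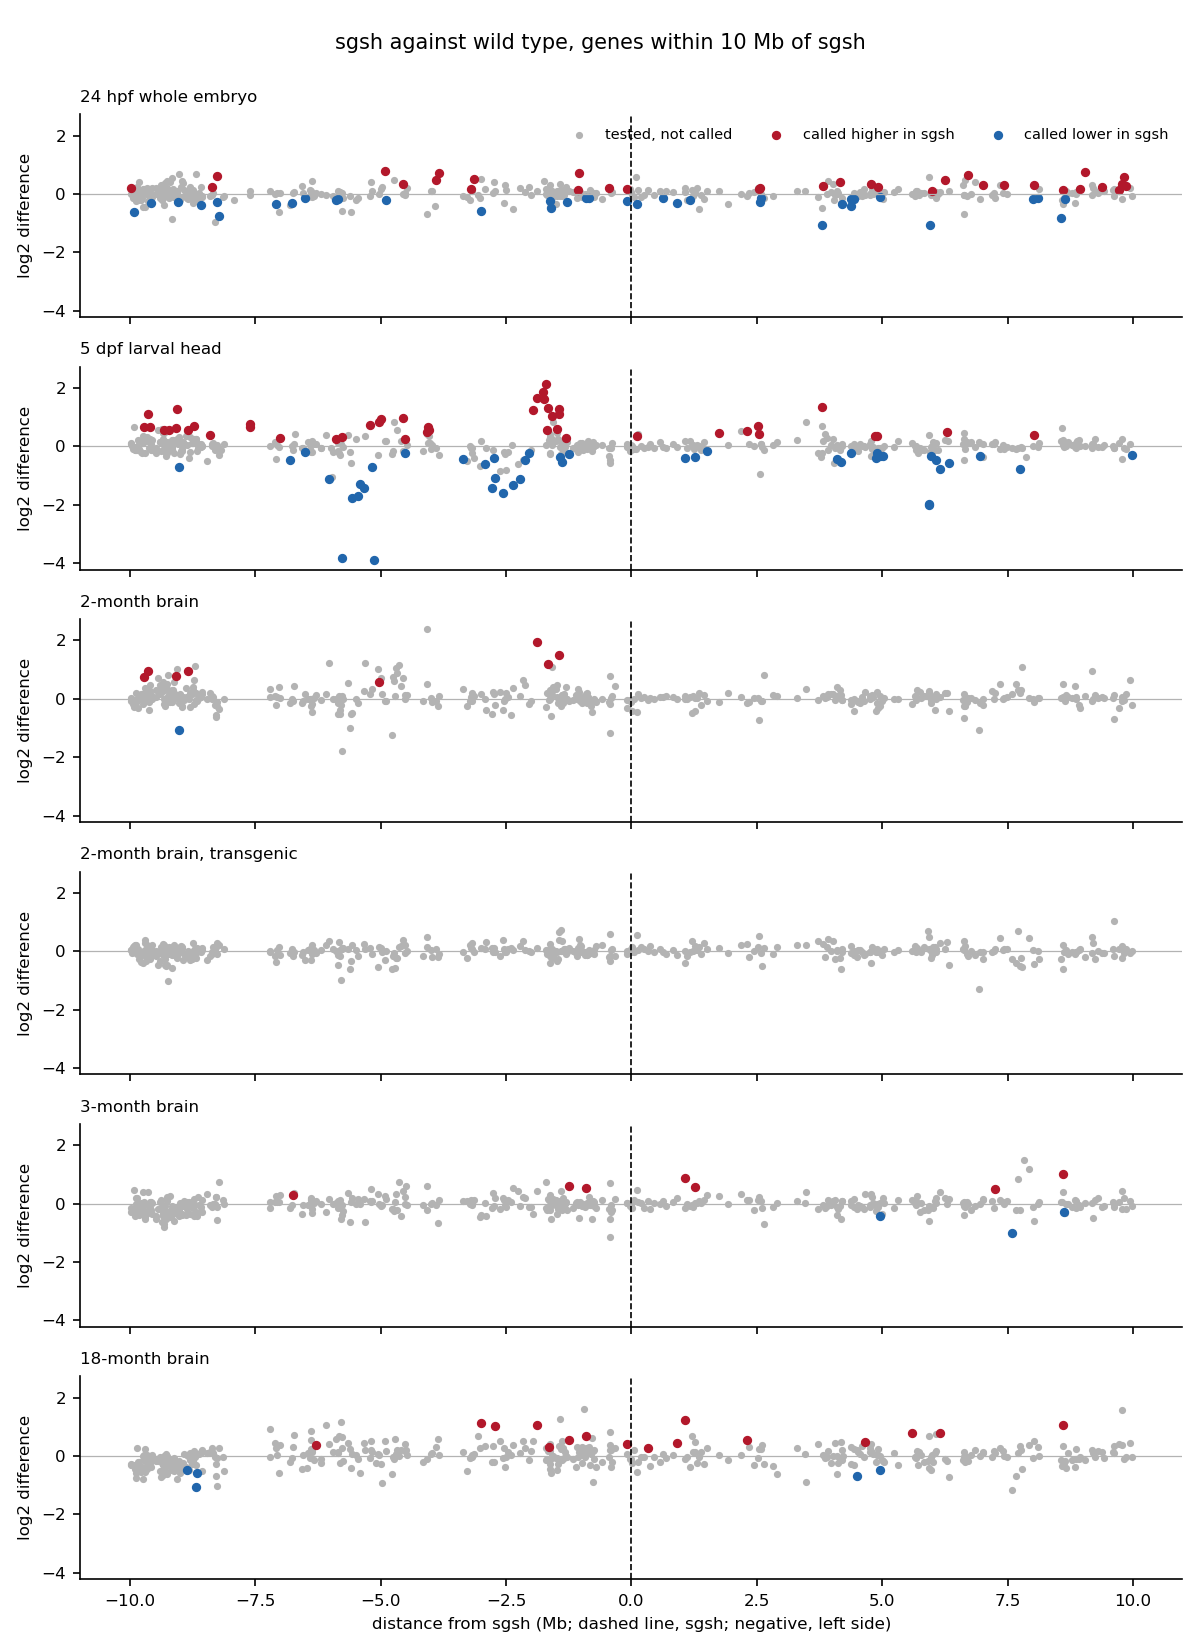
Log2 difference between sgsh and wild type (vertical axis) for every tested gene against its distance from sgsh in Mb (horizontal axis), with 1 panel per comparison. Red and blue points are genes called higher and lower in sgsh, and grey points are tested genes that were not called. At 5 dpf 60 of the 89 genes called lie left of sgsh and 29 right, all 9 genes called at 2 months lie on the left, and none of the 27 genes tested within 1 Mb on the left is called at 5 dpf.

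At 5 dpf the genes called did not pile up around sgsh. Within 1 Mb on the left, none of 27 genes tested at 5 dpf was called by edgeR or by DESeq2. Of the 27, 6 had an unadjusted p under 0.05 (22.2%, against 27.1% of all genes). Within 1 Mb on the right 1 of 16 was called (6.25%). The share at 5 dpf was highest farther out on the left, with 19 of 53 genes called between 1 and 2.5 Mb (35.8%) and 13 of 45 between 2.5 and 5 Mb (28.9%). Between 5 and 10 Mb on the left it was 28 of 170 (16.5%). On the right, 5 of 20 (25%), 11 of 55 and 12 of 95 (12.6%) were called in the 3 outer bins. Across the rest of chromosome 22, beyond the window, it was 73 of 307 (23.8%), and on all other chromosomes 14.1%.

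At 24 hpf the bins ranged from 1 of 19 genes called (5.26%), at 1 to 2.5 Mb on the right, to 14 of 51 (27.5%), at 2.5 to 5 Mb on the right. 3 months had at most 4 genes called in any bin. At 18 months, with 2 to 4 genes called in a bin, the share was highest within 1 Mb on each side. It was 2 of 31 there on the left (6.45%), then 6.38%, 4.65% and 2.37% farther out, and 2 of 15 on the right (13.3%), then 10.5%, 6.12% and 3.37%, against 6.72% of all genes. Neighbouring genes are not independent, and no test was made along the distance. At the left edge of the window si:ch211-255f4.6, the outermost tested gene inside, and the 2 nearest tested genes outside were called nowhere, while si:ch211-255f4.7, the next gene inside, was called at 24 hpf (0.22). At the right edge mier2, just inside, was called at 5 dpf (-0.30). plpp2b, just outside, was called nowhere, and tle2a, the next gene outside, was called at 5 dpf (0.16).

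**Figure D2:**
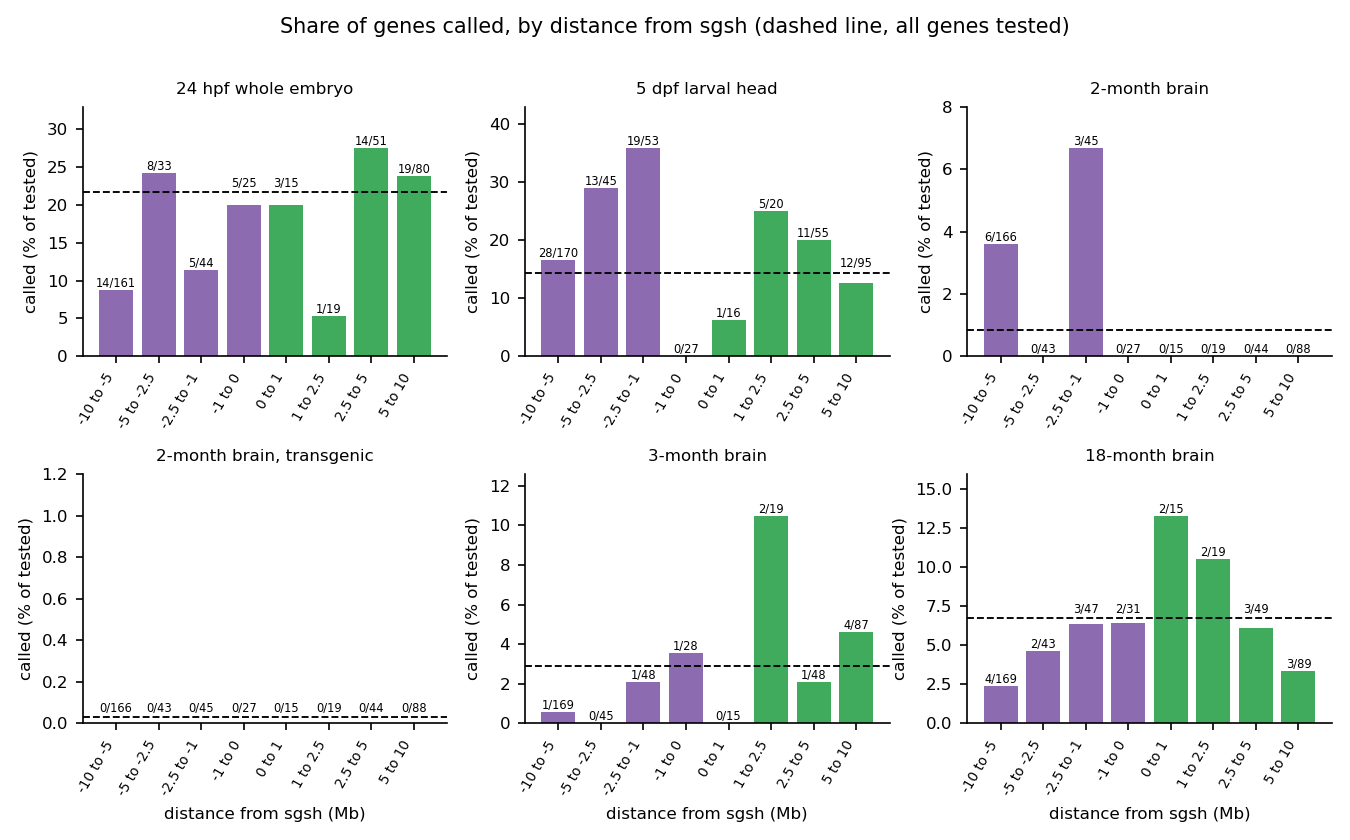
Share of tested genes called (percent, vertical axis) in each bin of distance from sgsh (Mb, horizontal axis), left of sgsh in purple and right of it in green, with the number called and tested over each bar. The dashed line is the share among all genes tested in that comparison. At 5 dpf the bins from 1 to 5 Mb on the left stand at 35.8% and 28.9%, and the bins within 1 Mb stand at 0% and 6.25%.

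At 5 dpf the genes called on the left lay partly in runs of neighbours, and the differences of at least 2-fold lay mostly on that side. Over all genes, 569 of the 3110 called at 5 dpf differed at least 2-fold (2.63% of the 21627 tested). In the window it was 26 of the 89 called, from 481 tested, and 23 of these 26 lie left of sgsh and 3 right. Under the 11 alternatives, 14 to 23 such genes lay on the left and 1 to 3 on the right. The run nearest to sgsh lies 1.4 to 2.0 Mb to its left, in limits drawn after the values were seen. It holds 39 genes, of which 28 were tested and 12 called (42.9%, against 14.4% of all genes), 11 of them higher in sgsh. The largest of these was si:ch211-236g6.1 (ENSDARG00000071590, chr22:9806867-9808794). Its level was 4.37, 4.39 and 4.79 CPM in sgsh heads and 0.878, 1.15 and 1.05 CPM in wild-type heads. The groups were far apart, with a log2 difference of 2.13 (SE 0.18, adjusted p = 9.39e-06). ENSDARG00000043131 was higher by 1.87 (SE 0.31, adjusted p = 0.00118) and si:dkey-286j17.3 by 1.64 (SE 0.264, adjusted p = 0.000982). At 24 hpf, si:ch211-236g6.1 was at 3.69, 4.26 and 4.25 CPM in sgsh and 4.64, 4.05 and 3.49 CPM in wild-type embryos, where the genotypes overlapped.

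The next run, 2.0 to 3.0 Mb to the left, went the other way at 5 dpf. Of its 20 tested genes 9 were called (45%) and all 9 were lower in sgsh, by log2 differences between -0.21 and -1.61, among them si:ch211-213a13.5 (-1.31) and ENSDARG00000108332 (-1.61). Of the 9, CACNA2D2, encoding a calcium channel auxiliary subunit, had the smallest. None of the 19 genes tested there in the 2-month brain was called, and the 2 called at 18 months, si:dkey-182g1.6 (1.04) and ENSDARG00000077415 (1.12), were higher. Farther out, 5.0 to 6.1 Mb to the left, 12 of 30 genes were called at 5 dpf (40%), 4 higher and 8 lower. In the stretch 8.7 to 9.8 Mb to the left, which holds most of the genes called at 2 months, 10 of 79 were called at 5 dpf (12.7%), fewer than the 14.4% of all genes, and 9 of the 10 were higher. These limits, too, were drawn after the values were seen, and no test was made of the stretches.

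The largest differences at 5 dpf were in the run at 5.0 to 6.1 Mb, in genes with few counts. si:rp71-1i20.2 (chr22:6393227-6404910) had 3, 1 and 2 counts in the sgsh heads and 14, 33 and 48 in the wild-type heads. Summed, that is 6 against 95 counts, a level 16 times higher in wild type (95% exact interval 7.08 to 44.7, counting error only), and its fitted log2 difference was -3.90 (SE 0.587, adjusted p = 0.000603). BCDIN3D, whose human counterpart is an RNA methyltransferase, had 0, 2 and 2 counts against 19, 16 and 27, or 4 against 62 in sum (15.7 times, interval 5.82 to 59.3). In the 2-month brain, where it did not pass the filter, BCDIN3D had 1, 0 and 1 counts in sgsh and 11, 9 and 2 in wild type. At 24 hpf both genes had 0 to 2 counts in every library. Both overlap other annotated genes.

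Genes with known roles on the left were called with smaller differences at 5 dpf. lmnb2, encoding a nuclear lamin, was higher by 0.40 (adjusted p = 2.03e-05), smarcd1, a chromatin remodelling subunit, by 0.26 (adjusted p = 0.00049), and fgfr1bl, named for fibroblast growth factor receptors, by 0.99 (adjusted p = 0.00055). cers4a, a ceramide synthase, was lower by -0.47 (adjusted p = 0.00103), and tppp, which encodes a tubulin polymerization protein, by -1.11 (adjusted p = 0.00684).

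On the right of sgsh the genes called at 5 dpf differed less. Apart from sult3st4, a sulfotransferase gene (1.36, SE 0.0923, adjusted p = 1.60e-06), the 2 right-side genes that differed at least 2-fold were the neighbours ifi44f3 (-2.01), whose name marks an interferon-induced family, and si:ch211-197g15.9 (-1.97). Of the 4 genes with ifi44f names in the window, 2 were tested at 5 dpf, with a median log2 difference of -0.80. Only ifi44f3 was called. stat1a, a transcription factor of interferon signalling, was lower by -0.37 (adjusted p = 0.000666), and lpl, encoding lipoprotein lipase, by -0.44 (adjusted p = 2.13e-05). Neighbouring genes here also went opposite ways. NCAN, encoding the brain proteoglycan neurocan, was lower (-0.57, adjusted p = 0.000576), and hapln4, which encodes a link protein of the same matrix, was higher (0.49, adjusted p = 0.0381). The aldehyde oxidase genes aox5 (0.43) and aox6 (0.70) were both higher. Marker genes of other tissues differed between the heads as well. The summed level of 5 skin markers was 12200 to 13200 CPM in sgsh and 9840 to 10800 CPM in wild type, and that of 5 microglial markers was 552 to 605 against 649 to 736 CPM. Muscle, melanocyte and radial glia markers did not overlap between the groups either, at 4330 to 4550 against 4690 to 5030, 138 to 142 against 107 to 133, and 1760 to 1820 against 1830 to 1880 CPM. In bulk tissue fewer cells of a type and less RNA per cell cannot be told apart, and the part of these markers in the differences was not tested. The count of 89 genes fell to 55 without sgsh replicate 2, and DESeq2 called 53 of 526. Over all genes the count fell from 3110 to 2001 without that library.

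In the 2-month brain the 9 genes called all lie left of sgsh, between 9.72 and 1.45 Mb away, out of 281 tested on the left (3.20%) and 166 on the right. Of these 9, 8 have a clone-based name or none, and 150 tested genes of that kind lie left and 16 right. With a gene symbol, 1 of 131 was called on the left and 0 of 150 on the right. Over the rest of chromosome 22, beyond the window, 0.369% were called. On the right 19 of 166 genes had an unadjusted p under 0.05 (11.4%), and on the left 47 of 281 (16.7%), against 11.3% of all genes. DESeq2 called 14 of 306 on the left and 1 of 179 on the right. Of the 9, 8 were higher in sgsh (the background for higher calls was 0.354%) and ENSDARG00000106808 was lower. 4 of the 9, from 447 tested, differed at least 2-fold. Over all genes it was 65 of the 166 called (0.329% of the 19749 tested). All 9 are named here after their values were seen. Across the 12 alternatives 4 to 14 genes were called on the left and at most 1 on the right. Without wild-type replicate 1 the count fell to 4, and over all genes it fell from 166 to 87. si:dkey-286j17.4, si:dkey-253d23.3 and zgc:194221 stayed called in all 12. The other 6 lost the call in at least 1, with an adjusted p of up to 0.178, and 5 of these 6 lost it without wild-type replicate 1. The summed level of 5 oligodendrocyte markers was 8690 to 9940 CPM in the 2-month sgsh brains and 10800 to 11400 CPM in the wild-type brains, and its part in these differences was not tested.

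si:dkey-286j17.4 (ENSDARG00000093402), a protein-coding gene at chr22:9632831-9736050, 1.89 Mb from sgsh, showed the largest difference of the 9. In the 2-month brains its level was 12.3, 8.87 and 8.74 CPM in sgsh and 2.47, 2.94 and 2.33 CPM in wild type. Every sgsh brain was far above every wild-type brain (log2 difference 1.95, SE 0.209, adjusted p = 0.000663). The 5 dpf heads gave nearly the same picture, with 8.15, 8.60 and 9.58 CPM against 2.81, 2.42 and 3.10 CPM (1.66, SE 0.131, adjusted p = 5.85e-06). At 18 months the levels were 4.17, 5.27 and 4.87 CPM against 2.30, 2.07 and 2.38 CPM (1.08, SE 0.163, adjusted p = 0.0123). It was thus called higher at 3 stages, the most of any gene in the window. At 18 months the call was lost without sgsh replicate 2 or wild-type replicate 2, where the adjusted p rose to 0.0671 at most.

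It was not called in the other comparisons. At 3 months the groups of si:dkey-286j17.4 did not overlap but lay closer together, at 6.07, 4.88 and 5.62 CPM against 4.17, 4.01 and 3.97 CPM (0.45, adjusted p = 0.0985). At 24 hpf they overlapped, at 12.8, 11.1 and 12.8 CPM against 12.1, 10.9 and 11 CPM. In the transgenic 2-month brains they overlapped too, at 7.37, 4.53 and 6.17 CPM in sgsh and 4.80, 6.67 and 5.31 CPM in wild type. A copy of 5S rRNA that was not tested lies within this gene on the same strand.

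Close by, si:dkey-253d23.3 (ENSDARG00000095643, chr22:9862243-9868707) was at 15, 17.3 and 12.3 CPM in the 2-month sgsh brains and at 6.33, 6.25 and 7.17 CPM in the wild-type brains (1.18, SE 0.127, adjusted p = 0.000663). At 5 dpf it was at 12.2, 11.8 and 13.3 CPM against 4.68, 5.94 and 4.33 CPM (1.31, adjusted p = 1.26e-05). In the 4 other comparisons its log2 difference lay between -0.01 and 0.18. The wild-type libraries of the other 4 comparisons lay between 9.91 and 20.3 CPM. Stages differ in tissue and in how reads were counted, so no change of the wild-type level between stages is read from this. The transgenic brains do share age, tissue and counting settings with the non-transgenic 2-month brains, and that comparison is given below. The remaining member of this run called at 2 months, si:ch211-222k6.3 (chr22:10066846-10071296), was at 3.85, 2.92 and 2.57 CPM in sgsh and 0.663, 1.04 and 1.59 CPM in wild type (1.5, adjusted p = 0.0191). At 3 months it was at 2.97, 2.44 and 3.95 CPM against 2.55, 2.77 and 3.48 CPM, and the groups overlapped. In the transgenic brains its 3 sgsh libraries, at 3.13, 3.06 and 2.78 CPM, were all above the wild-type ones, at 2.52, 2.35 and 2.04 CPM (0.38, adjusted p = 0.886).

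Most of the others called at 2 months lie far from sgsh, between 8.8 and 9.8 Mb. znf1179, a zinc finger gene 9.72 Mb to the left (chr22:1796057-1800444), was at 199, 196 and 201 CPM in the 2-month sgsh brains and 89.9, 120 and 148 CPM in the wild-type brains (0.74, SE 0.12, adjusted p = 0.011). Its sgsh brains were close together, and its wild-type brains were all lower and spread out. In the transgenic brains it was at 226, 243 and 235 CPM against 242, 237 and 226 CPM, and the groups overlapped. At 5 dpf it differed by 0.66 (adjusted p = 0.000137), and at 24 hpf, 3 and 18 months by 0.07 or less.

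si:dkey-15h8.17 was at 6.61, 6.93 and 7.64 CPM against 3.02, 3.74 and 4.11 CPM at 2 months (0.96, adjusted p = 0.011), and at 5 dpf it differed by 1.12. zgc:194221 was at 21.6, 22.5 and 16.9 CPM against 8.62, 11.4 and 11.6 CPM (0.95, adjusted p = 0.00254). ENSDARG00000111899 differed by 0.77 (adjusted p = 0.022). ENSDARG00000106808 was lower, at 2.04, 1.70 and 1.65 CPM in sgsh and 3.74, 3.74 and 3.98 CPM in wild type (-1.08, SE 0.202, adjusted p = 0.0239). Nearer, 5.03 Mb from sgsh, si:dkey-19a16.7 was at 27.8, 28.6 and 26.6 CPM against 18.9, 14.3 and 22.8 CPM (0.57, adjusted p = 0.0491). Its call was lost in 8 of 12 alternatives, with an adjusted p of up to 0.178. None of these genes has a described role in the annotation used here.

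**Figure D3:**
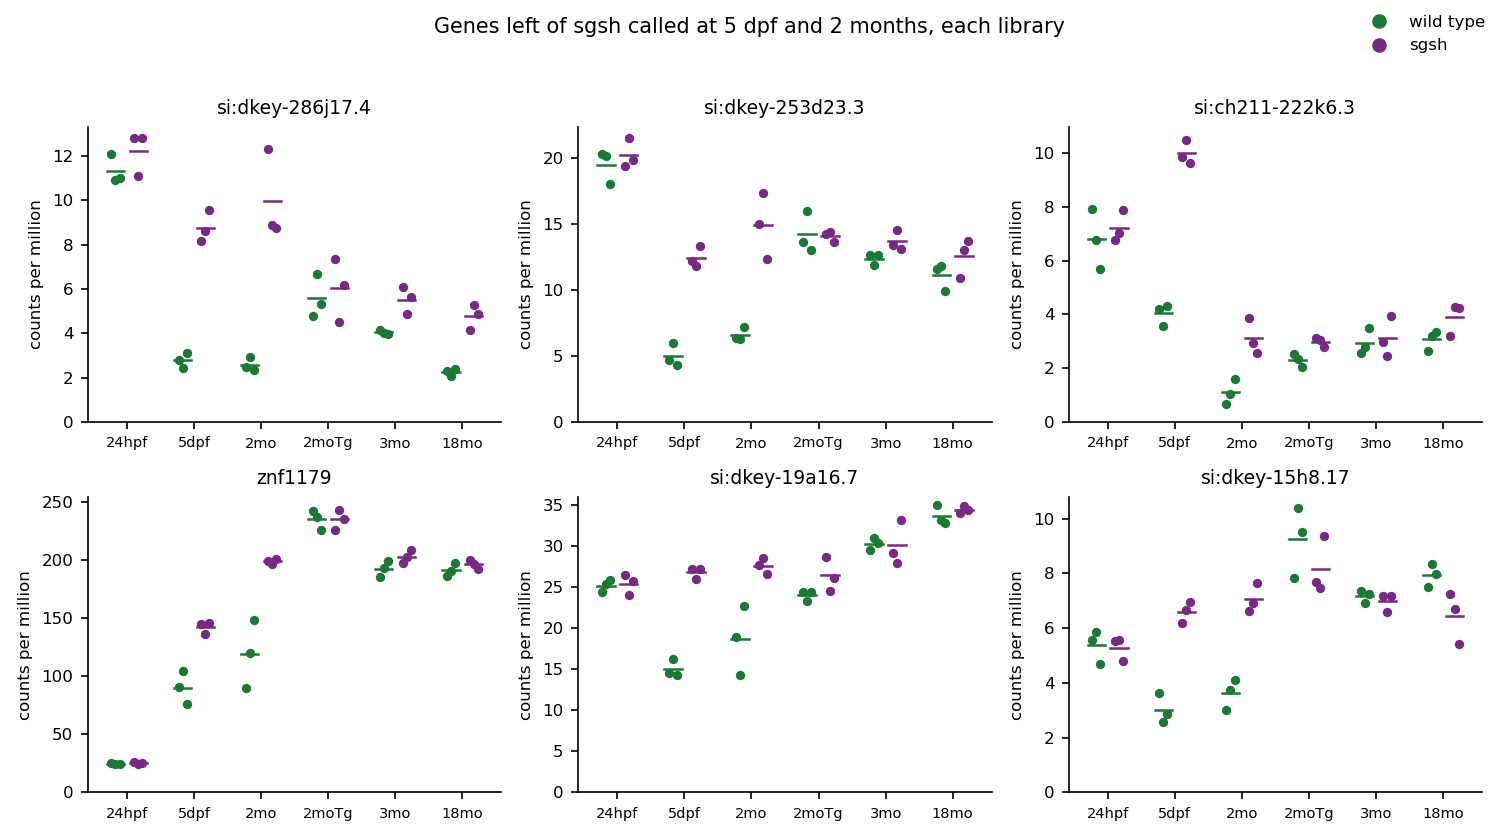
Level in each library (CPM, vertical axis, from 0) of 6 genes left of sgsh that were called at 5 dpf and 2 months, in wild-type (green) and sgsh (purple) fish at the 6 stages or lines (horizontal axis). Points are libraries and bars are group means. At 24 hpf all 6 genes overlap between genotypes, and in the transgenic (2moTg) brains 4 of the 6 do, such as si:dkey-253d23.3 at 13.6, 16 and 13 CPM in wild-type and 14.2, 14.4 and 13.6 CPM in sgsh transgenic brains. Over all genes tested, the groups did not overlap for 36.3% at 24 hpf and for 13.6% in the transgenic brains.

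The larval heads and the 2-month brains share no library, and their differences on the left of sgsh resembled each other. All 9 genes called at 2 months were called in the same direction at 5 dpf. They are 12.3% of the 73 genes called at 5 dpf that were tested at 2 months. Outside the window, 61 of the 150 genes called at 2 months and tested at 5 dpf (40.7%) were called in the same direction there, which is 2.58% of the 2368 genes called at 5 dpf. Among the genes called at 5 dpf on the left, 36 of 48 (75.0%) had the same sign at 2 months, and on the right 12 of 25 (48.0%). Over the rest of chromosome 22 it was 62.5%, and outside the window 1394 of 2368 (58.9%). The 36 include the 9 genes called in both. Across the 265 left-side genes tested in both, Spearman's rho between the log2 differences was 0.39 and Pearson's r 0.45. Across 163 right-side genes they were 0.05 and 0.02. As a description over genes, which share their libraries and neighbourhood, rho on the left was 0.23 within 1 Mb, 0.29 at 1 to 2.5 Mb, 0.43 at 2.5 to 5 Mb and 0.45 beyond, and on the right between 0.00 and 0.14. It was 0.13 over the rest of chromosome 22 and 0.10 over the other chromosomes together, and by chromosome it ran from -0.05 to 0.25, with 0.24 for chromosome 22. Of the other pairs of comparisons, 3 against 18 months had a rho of 0.36 on the left and 0.34 on the right. For that pair it was 0.37 over the rest of chromosome 22 and 0.31 outside the window. The remaining pairs lay between -0.15 and 0.13 on the left. The 5 dpf and 2-month files, transgenic brains included, were counted with the same settings, and the part of counting in the likeness was not tested.

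**Figure D4:**
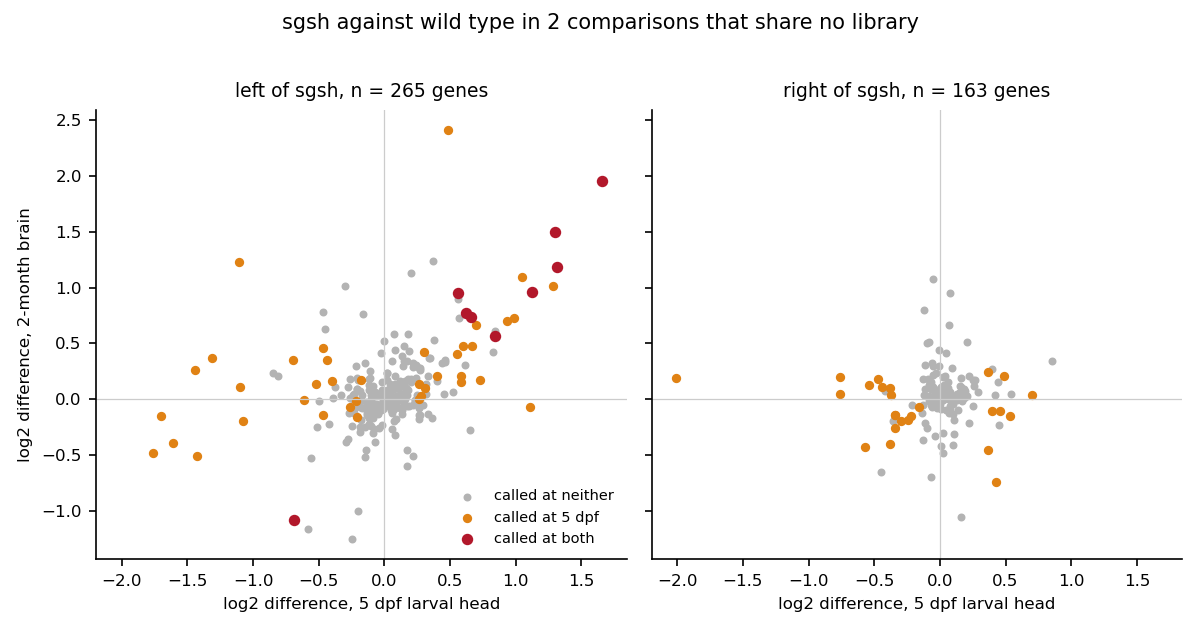
Log2 difference between sgsh and wild type in the 2-month brain (vertical axis) against that in the 5 dpf larval head (horizontal axis), for genes left (265) and right (163) of sgsh. Red points were called in both comparisons, orange points at 5 dpf only, and grey points at neither. The 9 red points are all on the left side and have the same sign in both comparisons.

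Brains with and without the transgene were also compared within each genotype. Between transgenic and non-transgenic wild-type brains 84 of 447 genes were called (18.8%, against 15.2% of all genes), and between transgenic and non-transgenic sgsh brains 58 (13%, against 18.4%). Over the rest of chromosome 22 the shares were higher than in the window, at 22.9% in wild type and 19.2% in sgsh. These comparisons use the same non-transgenic libraries by which the 9 genes were chosen, so the direction of those genes here is not independent of that choice, and their values are given as a description. si:dkey-253d23.3 was higher by 1.11 in transgenic wild type (adjusted p = 0.000123), while between the sgsh groups its difference was -0.08. si:dkey-15h8.17 was higher by 1.35 (adjusted p = 0.000112) and znf1179 by 0.98 (adjusted p = 0.000189). si:dkey-286j17.4 differed between both, higher by 1.11 with the transgene in wild type (adjusted p = 0.00434) and lower in sgsh (-0.72, adjusted p = 0.0168).

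The test of the genotype difference with against without the transgene called 2 of the 447 genes (0.447%, against 0.127% of all genes). They are si:dkey-286j17.4, at -1.84 (SE 0.289, adjusted p = 0.0352), and si:dkey-253d23.3, at -1.19 (SE 0.174, adjusted p = 0.0279). si:dkey-286j17.4 stayed called in 7 of 17 alternatives and si:dkey-253d23.3 in 9 of 17, and each lost the call in most of the fits that left out 1 library. For the other 7 genes the adjusted p of this difference lay between 0.0643 and 0.42, so a change with the transgene was not shown for them. The count was 0 when sgsh or wild-type replicate 1 or wild-type replicate 2 of the non-transgenic brains was left out, and also without transgenic sgsh replicate 2 or 3 or transgenic wild-type replicate 1 or 2. It was 1 without transgenic sgsh replicate 1 or transgenic wild-type replicate 3. Over all genes, the fits with a count of 0 here called 3 to 11, against 25 with every library. The adjusted p reached 0.0939 for si:dkey-286j17.4 and 0.0698 for si:dkey-253d23.3. The 84 calls between the wild-type groups fell to 50 without non-transgenic replicate 1 and to 55, 49 and 55 without transgenic replicates 1, 2 and 3. In the same fits the count over all genes fell from 3009 to 1795, 1989, 1889 and 2058.

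Whole embryos at 24 hpf showed many small differences. The 69 genes called had a median absolute log2 difference of 0.267, against 0.579 for the 89 called at 5 dpf. Over all genes, 242 of the 4369 called at 24 hpf differed at least 2-fold (1.2% of the 20175 tested). In the window it was 2 of the 69 called, from 428 tested. Both lie to the right. si:ch211-197g15.5, 5.96 Mb away, was at 0.642, 0.430 and 0.502 CPM in sgsh and 1.11, 1.04 and 1.16 CPM in wild type (-1.07, SE 0.265, adjusted p = 0.00515), from 11 to 30 counts a library. sult3st4 was at 0.762, 0.937 and 0.772 CPM against 2.03, 1.47 and 1.63 CPM (-1.05, SE 0.225, adjusted p = 0.0016). At 5 dpf the same gene was higher in sgsh, at 31.8, 34.9 and 29.7 CPM against 10.5, 13.1 and 13.8 CPM. The receptor gene rxfp3.2b was lower by -0.83 (adjusted p = 0.0425), a call lost in 6 of 11 alternatives, among them each sgsh library left out and wild-type replicate 1 or 2 left out (adjusted p up to 0.275).

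Other genes differed by less, with small errors. safb, which encodes a nuclear matrix protein, was higher by 0.41 (SE 0.0365, adjusted p = 1.73e-08), and cirbpb, a cold-inducible RNA-binding protein, by 0.30 (SE 0.0344, adjusted p = 9.95e-07). klf2a, a transcription factor of endothelial cells, was lower at both 24 hpf (-0.42) and 5 dpf (-0.24). The count of 69 fell to 43 without sgsh replicate 3 and to 42 without wild-type replicate 1, and DESeq2 called 34 of 424. Without these libraries the count over all genes fell from 4369 to 3378 and 3278. The summed level of 5 muscle markers was 6280 to 6800 CPM in sgsh embryos and 4640 to 5160 CPM in wild-type embryos, and that of 5 lens markers 74.8 to 102 against 58.4 to 65.9 CPM. Their part in these differences was not tested.

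In the 3-month brain 7 genes were higher in sgsh and 3 lower, where 2.01% and 0.878% of all genes were, and they lay on both sides. mmadhca, which encodes a protein of vitamin B12 metabolism, lies 1.06 Mb to the right (chr22:12595144-12604606). It was at 20.8, 20.2 and 23.6 CPM in sgsh and 10.9, 10.3 and 14.0 CPM in wild type, a log2 difference of 0.88 (SE 0.116, adjusted p = 0.00464). At 18 months it was at 21.1, 26.5 and 27.7 CPM against 8.57, 9.01 and 14.4 CPM (1.24, SE 0.202, adjusted p = 0.0156). The groups did not overlap at either age. Elsewhere it was not called higher. At 5 dpf it was at 21.8, 19.1 and 22.5 CPM in sgsh and 27.2, 27.3 and 28.2 CPM in wild type, which was lower (-0.38, adjusted p = 0.00191). In the 2-month brains its groups overlapped, at 31.1, 28.7 and 26.6 CPM against 21, 31.5 and 28.2 CPM, and in the transgenic brains the difference was -0.41 with an adjusted p of 0.563.

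mmadhca overlaps cep70 on the opposite strand, and for the 24 hpf, 3-month and 18-month counts the strand setting is not stated, so their reads may not be separable there. cep70 differed by -0.16 at 3 months and -0.10 at 18 months and was not called. The 18-month call of mmadhca was lost without sgsh replicate 2 or wild-type replicate 1 or 2, with an adjusted p of up to 0.0776.

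RAD54L2, a gene of the SNF2 helicase family 0.91 Mb to the left, was higher at the same ages. Its level was 124, 131 and 132 CPM in sgsh and 88.3, 88.6 and 93.4 CPM in wild type at 3 months (0.52, SE 0.0463, adjusted p = 0.000608). At 18 months it was 144, 137 and 143 CPM against 81.0, 83.6 and 98.7 CPM (0.69, SE 0.0803, adjusted p = 0.00534). Both calls held in all 11 alternatives of each comparison. It overlaps cyb561d2 on the opposite strand. At 2 months the groups overlapped, at 95.5, 93.7 and 115 CPM against 83.8, 97.2 and 93.9 CPM. stab1, a scavenger receptor of endothelial cells and macrophages, was higher at 3 months (0.60, adjusted p = 0.0322) and at 18 months (0.55, adjusted p = 0.0127). Its 3-month call was lost without sgsh replicate 2 or 3 or any wild-type replicate (adjusted p up to 0.101), and its 18-month call without sgsh replicate 2 or wild-type replicate 1 or 2 (up to 0.0692). eef2a.2, encoding translation elongation factor 2, was at 3.01, 2.99 and 3.29 CPM against 1.97, 1.19 and 1.37 CPM at 3 months (1.03, adjusted p = 0.0273) and was higher by 1.08 at 18 months. Its 3-month call was lost without any 1 of the sgsh replicates or wild-type replicate 2 or 3 (adjusted p up to 0.129), and its 18-month call with no filter and without sgsh replicate 1 or 2 or wild-type replicate 1 or 2 (up to 0.164). It has a near copy, eef2a.1, beside it, so how reads were divided between them is uncertain.

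Of the genes lower in sgsh at 3 months, ier5, an immediate early response gene 4.96 Mb to the right, was at 37.4, 33.0 and 31.6 CPM against 45.9, 43.5 and 48.3 CPM (-0.43, SE 0.074, adjusted p = 0.0147). It was lower too at 18 months (-0.48, adjusted p = 0.0279) and at 24 hpf (-0.11, adjusted p = 0.0368), which makes it the only gene beside si:dkey-286j17.4 called in 1 direction at 3 stages. The 24 hpf call was lost with DESeq2 and without sgsh replicate 1 or 3 or wild-type replicate 1 or 2 (adjusted p up to 0.198), the 3-month call without sgsh replicate 3 or wild-type replicate 1 (up to 0.0579), and the 18-month call without sgsh replicate 3 or wild-type replicate 1 or 2 (up to 0.117). fgf22, a growth factor of synapse formation, was at 1.59, 1.52 and 1.33 CPM against 3.07, 3.17 and 2.64 CPM (-0.99, SE 0.174, adjusted p = 0.016), and at 18 months its difference was -1.17 with an adjusted p of 0.0557. Its 3-month call was lost without sgsh replicate 3 or wild-type replicate 1 or 2 (adjusted p up to 0.0911). btbd2a was lower by -0.27. The remaining genes called at 3 months were mstna, encoding myostatin (0.56), CBARP, a calcium channel regulator (0.49), and calr3a, of the calreticulin family (0.30), all higher in sgsh. mstna, CBARP and calr3a, like btbd2a, lost the call without wild-type replicate 2 (adjusted p up to 0.122 over their alternatives). The count of 10 was 4 without sgsh replicate 3, without wild-type replicate 1 or without wild-type replicate 2. In these fits the count over all genes fell from 576 to 307, 234 and 172.

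At 18 months 16 of the genes called were higher in sgsh and 5 lower, where 4.52% and 2.2% of all genes were. The largest difference among those whose groups did not overlap was that of mmadhca. ENSDARG00000077415, 3.00 Mb to the left, was at 3.14, 2.48 and 2.28 CPM in sgsh and 1.55, 0.879 and 1.19 CPM in wild type (1.12, adjusted p = 0.0412). It overlaps many annotated genes, and its call was lost in 7 of 11 alternatives, with any single library left out among them (adjusted p up to 0.141). s100b, which encodes a calcium-binding protein used as a glial marker, was higher at 18 months (0.54, adjusted p = 0.031) and at 5 dpf (0.53, adjusted p = 0.00559). It is also among the radial glia markers, whose summed level at 18 months was 6100 to 6430 CPM in sgsh and 5350 to 5660 CPM in wild type. At 5 dpf that sum was lower in sgsh, at 1760 to 1820 against 1830 to 1880 CPM. SBNO2 was higher at 18 months by 0.79 (adjusted p = 0.00984), after being lower at 5 dpf (-0.76, adjusted p = 9.09e-06). All 10 genes called at 3 months had the same sign at 18 months, and 5 of them (50%) were called there. Outside the window 528 of the 565 genes called at 3 months had the same sign, and 290 (51.3%) were called. These make up 23.8% of the genes called at 18 months in the window and 22.1% outside.

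The 18-month count rested on single libraries. It was 62 without sgsh replicate 1, 3 and 8 without sgsh replicates 2 and 3, and 8, 2 and 8 without wild-type replicates 1, 2 and 3, and DESeq2 called 36 of 445. The count over all genes moved the same way, from 1352 with every library. It was 3453, 189 and 698 without sgsh replicates 1, 2 and 3. Without wild-type replicates 1, 2 and 3 it was 375, 196 and 501. Marker levels moved with the genotype in the older brains. The summed level of 5 microglial markers was 286 to 306 CPM in sgsh and 230 to 260 CPM in wild type at 3 months, and 322 to 362 against 197 to 226 CPM at 18 months. That of 5 melanocyte markers was 101 to 137 against 9.16 to 13.4 CPM at 3 months and 84.4 to 123 against 7.94 to 11.4 CPM at 18 months. At 2 months, too, melanocyte markers summed to 51.4 to 71.2 CPM in sgsh and 16.3 to 19 CPM in wild type. At 3 months red blood cell markers summed to 235 to 250 CPM in sgsh and 389 to 599 CPM in wild type, those of oligodendrocytes to 11100 to 11300 against 11800 to 13000 CPM, and those of skin to 50.3 to 57.4 against 67.4 to 72.8 CPM. The part of these cell types in the differences above was not tested.

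**Figure D5:**
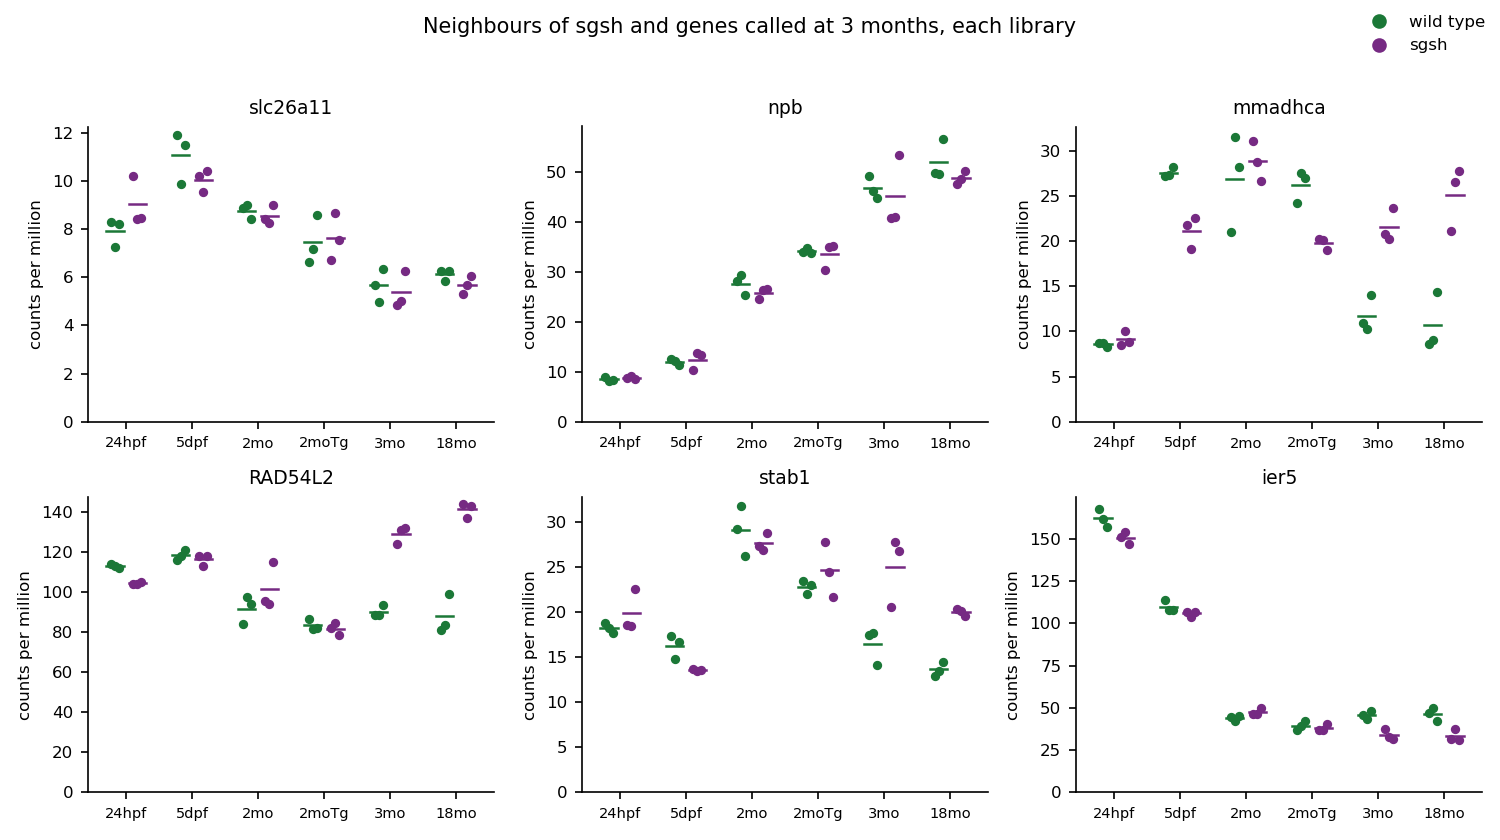
Level in each library (CPM, vertical axis, from 0) of the neighbours slc26a11 and npb and of 4 genes called at 3 months, in wild-type (green) and sgsh (purple) fish at the 6 stages or lines (horizontal axis). Points are libraries and bars are group means. slc26a11 and npb overlap between genotypes at 5 dpf and 3 months, whereas mmadhca and RAD54L2 are apart at 3 and 18 months and overlap at 2 months.

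Over the 6 comparisons, 167 of the 522 tested genes were called at least once (32.0%, against 33.0% of the tested genes outside the window). Of these, 141 were called in a single comparison and 26 in more. 19 genes (3.64%) were called in the same direction in at least 2 comparisons, against 4.14% outside, and 2 (0.383%) in 3, against 0.426% outside. 10 genes were called in both directions, among them mmadhca, RAD54L2, stab1, sult3st4 and dpp4. stab1 is among them through its 5 dpf call (-0.26), which held in 3 of 11 alternatives (adjusted p up to 0.244). The share outside the window was not counted over all 6 comparisons together, only by pair. Among the window's genes called at 5 dpf and tested at 18 months, 4 of 74 were called the other way. Outside it was 212 of 2414. For 5 dpf and 3 months it was 2 of 76 against 113 of 2370. From 24 hpf it was 3 of 67 against 344 of 4130 at 5 dpf. At 3 months it was 1 of 62 against 85 of 3810, and at 18 months 3 of 62 against 156 of 3807. The mean of the 6 genotype differences, fitted on all 36 libraries, was called for 63 of 527 genes (12%, against 8.22% of all genes), and over the rest of chromosome 22 for 38 of 338 (11.2%). Chromosome 22 as a whole stood at rank 1 of the 25 chromosomes. The mean difference was 0.90 for si:dkey-286j17.4 (SE 0.0635, adjusted p = 5.63e-11), 0.62 for si:ch211-222k6.3 (SE 0.0795, adjusted p = 4.93e-06) and 0.48 for si:dkey-253d23.3 (SE 0.0447, adjusted p = 2.32e-08). These genes were named for calls in comparisons that enter the mean, so their p-values here are not independent of that choice. A mean above 0 does not show a difference shared by all stages. As given above, si:dkey-253d23.3 differed clearly in only some of the comparisons averaged.

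Genes with a clone-based name or none made up 8 of the 9 genes called at 2 months. At 5 dpf 41 of 174 genes with a clone-based name or none were called (23.6%) and 48 of 307 with a gene symbol (15.6%). Outside the window it was 19% and 13.3%. By side at 5 dpf, 37 of 152 genes with a clone-based name or none were called on the left (24.3%) and 4 of 22 on the right (18.2%). With a gene symbol it was 23 of 143 on the left (16.1%) and 25 of 164 on the right (15.2%). At 2 months 8 of 166 genes with a clone-based name or none were called (4.82%) and 1 of 281 with a gene symbol (0.356%). Outside the window it was then 1.43% and 0.699%. At 3 months all 10 genes called had a gene symbol. The window also holds 40 zinc finger genes with znf names, all of which passed the filter in all 6 comparisons. At 5 dpf 4 were called (10%, against 14.4% of all genes), all higher in sgsh, where 5.71% of all genes were, among them znf1177 (1.28, adjusted p = 0.0171). At 24 hpf 1 was called, lower in sgsh, and at 2 months znf1179 alone. The median log2 difference of the 40 was 0.04 at 24 hpf, 0.22 at 5 dpf and 0.09 at 2 months, -0.08 in the transgenic brains, and -0.28 and -0.26 at 3 and 18 months, where none was called. The median over all genes was between -0.01 and 0.00 at each stage. Such genes have near-identical neighbours, so how reads were divided between them is uncertain. Of 7 pancreatic elastase genes (cela), 6 passed the filter at 5 dpf, and 3 were higher in sgsh, between 0.48 and 0.65, where 5.71% of all genes were called higher.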

How the data were processed

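RNA of 36 zebrafish libraries had been sequenced on the DNBSEQ platform. The deposited values are raw counts per Ensembl gene, without normalization. The 5 dpf and 2-month files were made by the authors with featureCounts 2.0.1 on STAR alignments (paired-end, reverse-stranded, mapping quality at least 10). For the 24 hpf, 3-month and 18-month counts, which share a table, neither the strand setting nor any filter was given in the sources used here. The submitters' processing notes name GRCz11, HISAT2, Bowtie2 and RSEM, and the paper's methods name HISAT2, Bowtie2 and Salmon for the 3-month brain. Differences were taken within a stage only, since counting differed between stages. Reads of near-identical copies may be split or lost.

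Groups came from the labels. Of the 721 genes, 336 were named by the files and 270 by a table of gene names, and 115 have no symbol. Genes passing edgeR's filterByExpr (minimum count 10, total 15) were tested in edgeR 4.0.16 (R 4.3.3) by the quasi-likelihood test with TMM and Benjamini-Hochberg adjustment over all genes. Each stage was fitted on its 6 libraries, the 2-month brains on 12, and the mean difference on all 36. The tests were checked on simulated data. Alternatives were DESeq2 1.42.0, RLE normalization, no filter, at least 10 counts in every library, a replicate block, the 6 libraries of a 2-month comparison alone, and each library left out. With 3 libraries against 3, an exact permutation test cannot go below p = 0.1, so none was made. Depths ran from 16200025 to 26038889 counts per library.

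Genes named were the 5 tested genes nearest to sgsh on each side, those called in 1 direction in at least 3 comparisons, the 3 called genes per comparison with the largest difference and groups that do not overlap, mmadhca, and sgsh. Others were named after their values were seen. The result of 1 gene is not reported here. The window, gene lists and tests were chosen with earlier results of these data known. No 2 libraries of a group were duplicates (chi-square per degree of freedom 2.05 to 16.6 over 36 pairs).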

Additional observations from a re-analysis of the deposited data

Results flagged for a closer look

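Differences between groups under the same contrast were tested as an interaction at 2 months. Between stages, and again for the transgene, they were tested in a fit of all 36 libraries that was chosen after seeing the data. With the transgene, the genotype difference changed by -1.84 for si:dkey-286j17.4 (adjusted p = 0.0352) and by -1.19 for si:dkey-253d23.3 (adjusted p = 0.0279). These calls held in 7 and 9 of 17 alternatives, with an adjusted p of up to 0.0939 and 0.0698. 10 genes were called in opposite directions at different stages, and counts outside the window are given above by pair of stages. For each of the 10 the difference between those stages was also called. That follows largely from how they were picked, since the same libraries enter both tests. Values are given for 9.

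For mmadhca the difference at 5 dpf minus that at 3 months was -1.26 (adjusted p = 0.000174), and minus that at 18 months -1.61 (adjusted p = 1.53e-06). For stab1 these were -0.85 (adjusted p = 0.000501) and -0.79 (adjusted p = 0.000416), and its 5 dpf call held in 3 of 11 alternatives. For RAD54L2 the difference at 24 hpf minus that at 3 months was -0.64 (adjusted p = 3.95e-05), and minus that at 18 months -0.81 (adjusted p = 4.18e-07). Between 24 hpf and 18 months, mid1ip1b changed by -0.65 (adjusted p = 0.00142).

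Between 24 hpf and 5 dpf, sult3st4 changed by -2.43 (adjusted p = 1.31e-06), dpp4 by -0.72 (adjusted p = 0.0076) and mcm2, a DNA replication helicase subunit, by -0.48 (adjusted p = 0.0285). Between 5 dpf and 18 months, SBNO2 changed by -1.53 (adjusted p = 1.10e-08) and si:dkey-182g1.6 by -2.11 (adjusted p = 0.000353). These genes were picked for their opposite calls in the same libraries, so the p-values of these differences are not independent of that choice and add no support. The stages also differ in tissue and in how reads were counted.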

How the results depend on the processing

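With DESeq2 the count was 34 at 24 hpf, 53 at 5 dpf, 15 at 2 months, 36 at 18 months and 6 for the interaction, against 69, 89, 9, 21 and 2 with edgeR. Over all genes DESeq2 called 2590 against 4369 at 24 hpf, 1872 against 3110 at 5 dpf, 274 against 166 at 2 months, 24 against 6 in the transgenic brains, 2101 against 1352 at 18 months and 109 against 25 for the interaction. With no filter the interaction called 4 genes (51 over all genes), and the 6 libraries of the 2-month comparison alone gave 5 (94 against 166 over all genes, and 12 against 6 in the transgenic brains). Leaving out 1 library gave 42 to 59 at 24 hpf, 55 to 82 at 5 dpf, 4 to 8 at 2 months, 0 to 0 in the transgenic brains, 4 to 11 at 3 months, 2 to 62 at 18 months, 42 to 57 and 49 to 59 for the transgene in sgsh and wild-type fish, 0 to 3 for the interaction and 52 to 70 for the mean difference. Over the 6 comparisons together the replicate numbers did not pair the samples (correlations of same-numbered deviations from -0.403 to 0.166, 4 of 18 over 0.1, and 9 of 18 libraries closest to their own number). At 5 dpf, with correlations of 0.141, 0.033 and 0.114, each was closest to its own number. With the replicate block the 18-month count was 3, and 290 against 1352 over all genes. The count rose to 97 at 5 dpf (3490 against 3110 over all genes) and to 13 at 3 months (809 against 576). Of the named calls, those of sgsh, mid1ip1b, si:dkey-286j17.4, eef2a.2, ENSDARG00000077415 and stab1 at 18 months, of si:dkey-19a16.7 at 2 months and of the interaction of si:dkey-286j17.4 were not made with the block. The 56 calls of the named genes, sgsh included, kept their direction in every alternative, and 23 stayed called in all of them. The cause of these shifts was not tested. Low counts limit genes such as si:rp71-1i20.2 and BCDIN3D, and 199 genes could not be tested.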
